A study of Mus musculus with 3 samples.

Results

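The genes described here encode the glutamate receptors and the auxiliary subunits that assemble with them. The members are 38 listed genes, 24 for receptor subunits and 14 for auxiliary subunits. All 38 had a row in the count tables, out of 32531 gene symbols. They were read from RNA immunopurified from the prefrontal cortex of adult mice of the Slc17a6-TRAP line JX883. In this line an EGFP-tagged ribosomal protein L10a is produced under control of Slc17a6, the gene of the vesicular glutamate transporter VGLUT2, and polysomes carrying the tag are captured with anti-EGFP antibodies. There was 1 group, with no treatment, of 3 immunopurified libraries, and each library was made from 3 pooled mice. No input RNA and no untagged control was analysed here, so every value is a level in the captured RNA, not an enrichment over the tissue.

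Ionotropic glutamate receptors are cation channels built from several subunits. AMPA receptors carry most fast excitatory transmission, NMDA receptors open when glutamate and a co-agonist bind and the membrane is depolarized, and kainate receptors act on both sides of the synapse. Metabotropic receptors signal through G proteins. TARPs, cornichons, Shisa proteins and GSG1L attach to AMPA receptors and alter their delivery and gating, and Neto proteins do the same for kainate receptors.

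Library totals over named genes ran from 8964137 to 12648577 counts. The driver Slc17a6 stood at 831 ± 97.4 CPM (counts scaled to a common library total, SD, n = 3). All 5 markers fixed for excitatory cortical neurons were present in every library, with summed levels of 3446, 3716 and 3832 CPM in replicates 1, 2 and 3. Markers of other cells were also present: 6 of 6 GABAergic markers (904 to 970 CPM in sum), 8 of 8 astrocyte markers (1366 to 1564 CPM), 6 of 6 striatal markers (273 to 417 CPM) and 4 of 5 oligodendrocyte markers (251 to 384 CPM) reached 1 CPM in every library. Most of the astrocyte sum came from Slc1a2 and Aldoc, at 985 and 348 CPM on average, and the next marker, Slc1a3, averaged 50.9 CPM. Olfactory bulb output neuron markers summed to 141, 105 and 22.4 CPM in replicates 1, 2 and 3. The oligodendrocyte precursor, microglia and endothelial lists summed to at most 44.2, 33.0 and 3.79 CPM. Of their markers, 4 of 4, 4 of 5 and 1 of 3 reached 1 CPM in every library, and the microglia marker C1qa had 0 counts. The thalamic markers summed to 7.86, 32.4 and 20.6 CPM, all from Tcf7l2, with Gbx2 at 0 counts. Tcf7l2 and the olfactory bulb marker Cdhr1 varied between libraries (edgeR goodness of fit test described below, adjusted p = 0.0429 and 2.28e-15). The part of the listed cell types in the levels given here was not tested, and in bulk RNA more cells of a type and more RNA per cell cannot be told apart.

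The AMPA receptor genes are close relatives, and the stretch that sets calcium entry shows it. The coding stretch around the Q/R site, the pore codon that RNA editing recodes in GluA2 and, less completely, in the kainate subunit GluK2, is printed for these genes because it is their best known functional site. Each line is 5′ to 3′ from GENCODE M21 transcripts on mm10, with the Q/R codon in capitals, and each stretch runs on into the next exon.
Gria1: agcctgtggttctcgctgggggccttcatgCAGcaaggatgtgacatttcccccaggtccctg
Gria2: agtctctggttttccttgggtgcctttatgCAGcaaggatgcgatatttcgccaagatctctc
Gria3: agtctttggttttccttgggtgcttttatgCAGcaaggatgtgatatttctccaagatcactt
Gria4: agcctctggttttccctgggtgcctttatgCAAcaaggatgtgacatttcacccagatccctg
Grik2: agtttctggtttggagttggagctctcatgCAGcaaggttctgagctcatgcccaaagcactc
The codon lies at chr11:57243094-57243096 (plus strand, exon 11) in Gria1, chr3:80706911-80706913 (minus strand, exon 11) in Gria2, chrX:41610265-41610267 (plus strand, exon 11) in Gria3, chr9:4464137-4464139 (minus strand, exon 12) in Gria4 and chr10:49244329-49244331 (minus strand, exon 12) in Grik2. Over the 63 bases, Gria3, Gria4, Gria1 and Grik2 shared 57, 54, 49 and 41 bases with Gria2. The counts carry no sequence, so editing was not measured. Adarb1, whose product ADAR2 edits the GluA2 site in mammals, was at 201, 214 and 152 CPM, and its relative Adar at 127, 151 and 122 CPM in replicates 1, 2 and 3.

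Similarity also bears on counting, because a read that matches more than 1 gene cannot be assigned with certainty. The longest run of identical bases between transcripts of 2 AMPA genes ranged over 35 to 59 bases in 6 pairs and was longest for Gria3 and Gria4. In kainate genes it ran from 17 to 46 bases (10 pairs), in NMDA genes from 13 to 34 (21 pairs), in metabotropic genes from 12 to 35 (21 pairs) and in TARP genes from 11 to 26 (15 pairs). How many reads this touched was not tested, since the read length is not given in the sources used here.

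Of the 38 members, 36 reached 1 CPM in every library, or 94.7%, against 37.9% of all gene symbols. The exceptions were Grm6 and Grin3b. The median over all 38 members was 58.0 CPM, against 0.138 CPM over all symbols, and 10 members averaged at least 100 CPM. Members together held 0.325%, 0.337% and 0.321% of the counts in replicates 1, 2 and 3. To compare genes, counts were divided by the merged exon length of each gene and scaled to a common total (TPM). The median was 54.6 TPM over the members and 2.79 TPM over the 23118 symbols with a length. Summed over receptor subunits the level was 1129, 1247 and 1208 TPM, and over auxiliary subunits 1257, 1342 and 1220 TPM, in replicates 1, 2 and 3. On this scale the 14 auxiliary genes together stood above the 24 receptor genes in each library, although the ranges of the sums overlapped. In CPM, with no length, the order was the other way: auxiliary genes summed to 1093, 1092 and 985 CPM and receptor genes to 2154, 2273 and 2224 CPM.

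**Figure D1:**
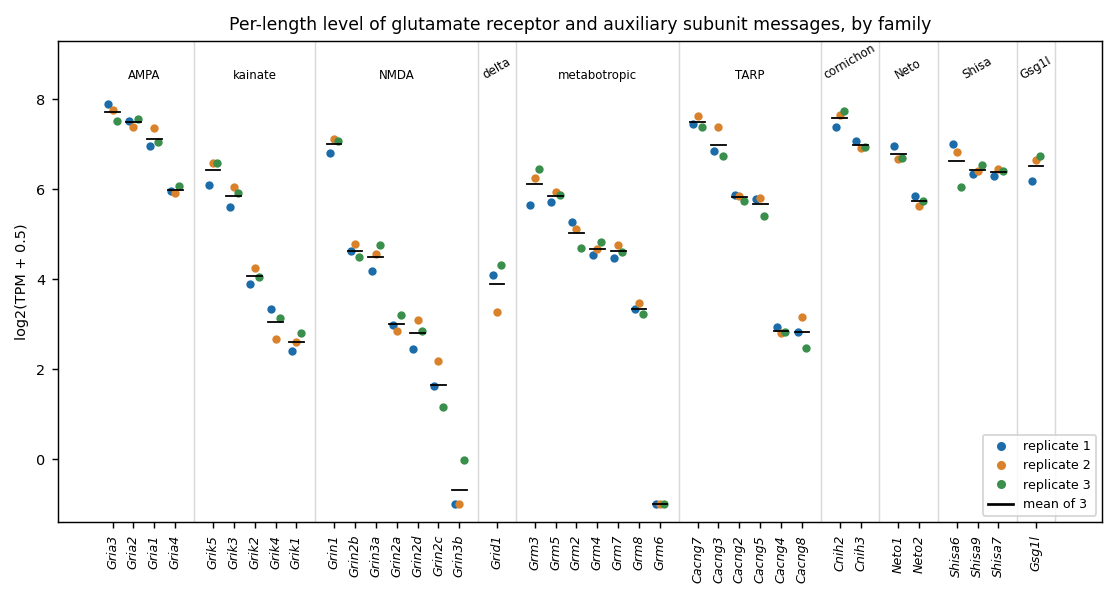
Each point is log2(TPM + 0.5) of 1 gene in 1 of the 3 libraries, the line is the mean of the 3 log2 values, and genes are ordered within their family by mean TPM. The AMPA genes and most auxiliary genes sit high, with Gria3 highest at 211 TPM on average, while Grm6, with 0 counts in every library, sits at the bottom of the scale.

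AMPA receptor subunits were the highest receptor family, at 606, 606 and 571 TPM in sum. Gria2 (chr3:80681450-80802835), encoding the GluA2 subunit that keeps AMPA receptors calcium-impermeable once edited, had the most counts of any member, at 569, 511 and 586 CPM, rank 207 of all genes. Gria3 (chrX:41400854-41678601), encoding GluA3, had 466, 422 and 357 CPM. Gria1 (chr11:57011387-57330244), encoding GluA1, the subunit best known for activity-driven insertion at synapses, had 149, 197 and 158 CPM. Gria4, encoding GluA4, which is typical of fast-spiking interneurons, had 78.4, 75.4 and 84.3 CPM. Per length these levels were 183, 165 and 190 TPM for Gria2, 237, 216 and 182 TPM for Gria3, 124, 165 and 131 TPM for Gria1 and 62.3, 60.3 and 67.3 TPM for Gria4, which was the lowest of the family in every library.

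Gria3 made up 35.5% ± 3.54 of the family's TPM (SD, n = 3), Gria2 30.3% ± 2.95, Gria1 23.5% ± 3.41 and Gria4 10.7% ± 0.98. The per-library ranges of Gria3 and Gria2 overlapped, and Gria2 was the higher of them in replicate 3. Which of these genes led depended on the length used. With the length of the longest coding sequence, or with CPM and no length, Gria2 led at 45.9% and 45.6%, and Gria3 had 34.1% and 34.0%. Gria4 was last under all 4 measures.

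Gria3 exceeded Gria1 by 0.60 ± 0.29 on the log2(TPM + 0.5) scale in 3 of 3 libraries. Gria2 exceeded Gria1 by 0.57, 0.01 and 0.53 in replicates 1, 2 and 3, and by 1.73 in CPM. The difference of Gria2 over Gria4 was steady, at 1.55, 1.45 and 1.49. For each of these 3 contrasts the exact two-sided sign-flip permutation test gave p = 0.25, or 0.294 after adjustment over the 20 contrasts between relatives. With 3 libraries 0.25 is the smallest p this test can give, and a threshold of 0.05 cannot be reached. In all, 17 of 20 contrasts had 1 direction in 3 of 3 libraries, and 17 of 20 kept the direction of their mean under all 4 measures of level.

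**Figure D2:**
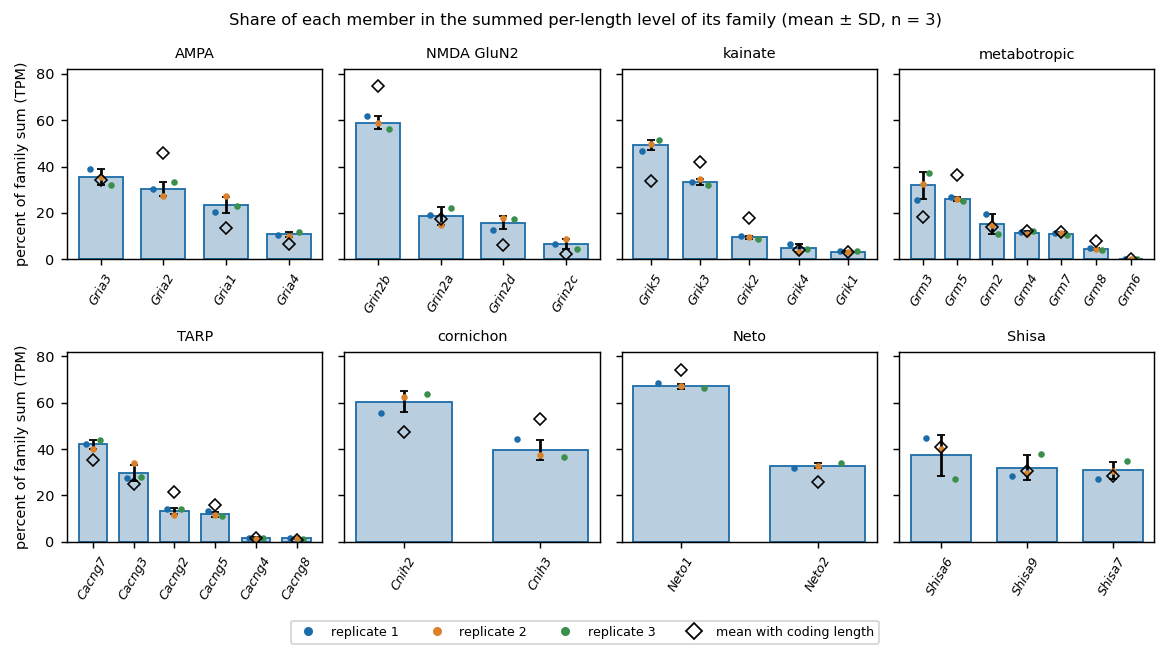
Bars give each gene's percent of the summed TPM of its family (mean ± SD, n = 3 libraries), dots the single libraries, and open diamonds the mean when coding length is used. The diamonds move the lead in the AMPA, kainate, metabotropic and cornichon families, and leave Grin2b, Cacng7, Neto1 and Shisa6 in front of theirs.

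NMDA receptor messages summed to 168, 207 and 201 TPM. Grin1 (chr2:25291181-25319187), which encodes the subunit present in every NMDA receptor, had 215, 266 and 260 CPM, or 111, 138 and 135 TPM. It stood above every other NMDA gene in all 3 libraries. Of its exonic bases 13.5% are shared with the annotated gene Grin1os, and strand use in counting is not given. The partners that bind glutamate, GluN2A to GluN2D, were unequal. Grin2b had 120, 133 and 110 CPM and Grin2a had 26.6, 23.9 and 31.1 CPM.

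Grin2b took 59.0% ± 2.67 of the GluN2 sum in TPM and 74.7% with coding length, and Grin2a 18.6% ± 3.73 and 17.2%. Grin2b exceeded Grin2a by 1.63, 1.93 and 1.30 log2 units in replicates 1, 2 and 3, or 3.07-fold (exact sign-flip permutation p = 0.25, adjusted p = 0.294). Grin2d, whose subunit is typical of interneurons and deep brain nuclei, had 6.59, 10.6 and 8.93 CPM, and Grin2c, typical of cerebellar granule cells and astrocytes, had 2.62, 4.02 and 1.74 CPM. Grin2d exceeded Grin2c by 0.81, 0.92 and 1.70 log2 units (exact sign-flip permutation p = 0.25), and Grin2c rested on 33, 36 and 22 counts.

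The genes of the GluN3 subunits, which bind glycine and lower calcium entry, stood far apart. Grin3a had 43.1, 56.1 and 64.4 CPM, while Grin3b had 0, 0 and 4 counts. Taking 3 counts as the limit that a count of 0 allows, the level was at most 0.238 CPM in replicate 1 and 0.335 CPM in replicate 2, for counting error only. The 4 counts of replicate 3 equal 0.316 CPM, with an exact 95% Poisson interval of 0.0862 to 0.810. Of the exonic bases of Grin3b 32.1% are shared with Tmem259. In TPM Grin3a (17.6, 23.0 and 26.4) overlapped in range with Grin2b (24.1, 26.9 and 22.2) and lay above Grin2a (7.43, 6.71 and 8.72).

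The delta receptor gene Grid1, whose product binds cerebellins at synapses, had 19.9, 10.9 and 23.1 CPM. Replicate 2 was the low one, with 98 counts, against 250 in replicate 1 and 292 in replicate 3. The spread did not pass the edgeR goodness of fit test (adjusted p = 0.788).

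Kainate receptor messages summed to 145, 191 and 186 TPM, and their order was the same in 3 of 3 libraries. Grik5 and Grik4 encode the high-affinity subunits GluK5 and GluK4, which need GluK1, GluK2 or GluK3 to form a channel. Grik5 (chr7:25009849-25072346) had 70.0, 97.5 and 98.4 CPM and Grik4 had 11.5, 6.92 and 9.80 CPM. Grik5 exceeded Grik4 by 2.75, 3.91 and 3.46 log2 units, or 10.4-fold (exact sign-flip permutation p = 0.25, adjusted p = 0.294). Among the channel-forming subunits, Grik2 had 38.0, 48.7 and 42.5 CPM and Grik3 had 85.9, 118 and 106 CPM. Grik1 had 6.43, 7.47 and 8.70 CPM and was the lowest of the family per length, at 4.79, 5.60 and 6.51 TPM.

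Grik2 lay below Grik3, with a log2 difference of -1.71, -1.81 and -1.85 in replicates 1, 2 and 3 and a mean of -1.22 with coding length and -1.25 in CPM. Grik2 exceeded Grik1 by 1.49, 1.64 and 1.25 units. Both contrasts had an exact sign-flip permutation p of 0.25. Grik5 held 49.4% ± 2.27 of the family in TPM and Grik3 33.2% ± 1.31, but with coding length Grik3 led at 41.9%, and Grik5 had 33.6%. Grik2 came next after this pair under all 4 measures, at 9.43% to 17.7%.

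Metabotropic receptor messages summed to 194, 234 and 231 TPM. Grm5 (chr7:87584168-88134907), which encodes the Gq-coupled mGlu5, had 107, 124 and 119 CPM, or 52.2, 61.2 and 58.2 TPM. Group II receptors, which lower cyclic AMP, were represented by Grm3 at 30.4, 45.8 and 52.3 CPM and Grm2 at 37.0, 33.2 and 24.8 CPM. Grm3 was at its lowest in replicate 1 and its highest in replicate 3, and Grm2 the reverse. Per length Grm3 stood at 49.965, 75.8 and 86.3 TPM and Grm2 at 37.9, 34.2 and 25.5 TPM. Grm3 encodes mGlu3, found in astrocytes as well as neurons, and the astrocyte markers, with 8 of 8 detected, summed to 1366, 1517 and 1564 CPM in replicates 1, 2 and 3. Most of that sum came from Slc1a2 (926, 1062 and 966 CPM) and Aldoc (312, 314 and 418 CPM). Single astrocyte markers differed in their order over the libraries: Gfap was at 5.003, 12.05 and 22.3 CPM and Aldh1l1 at 8.10, 5.13 and 3.79 CPM. Their part in the level of Grm3 was not tested.

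Grm3 exceeded Grm2 by 0.40, 1.14 and 1.74 log2 units per length, and Grm5 exceeded Grm2 by 0.46, 0.83 and 1.17 units (exact sign-flip permutation p = 0.25 each). In CPM these mean differences were 0.41 and 1.88. Grm3 took 31.9% ± 5.85 of the family in TPM and Grm5 26.1% ± 0.82, with overlapping ranges. Grm5 led under the other measures, at 36.4% with coding length, where Grm3 had 18.1%, and at 27.6% with the longest transcript, where Grm3 had 26.5%.

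Group III receptors are mostly presynaptic autoreceptors. Grm7 had 25.6, 31.3 and 28.1 CPM, Grm4 had 27.0, 29.6 and 32.9 CPM and Grm8 had 19.0, 20.97 and 17.4 CPM. Grm7 and Grm4 changed order between libraries: their difference was -0.06, 0.10 and -0.20 log2 units in replicates 1, 2 and 3 (exact sign-flip permutation p = 0.75, adjusted p = 0.75), and its mean changed sign to 0.05 with the length of the longest transcript. Grm7 exceeded Grm8 by 1.14, 1.29 and 1.39 units per length. Grm6, whose receptor serves retinal ON bipolar cells, had 0 counts in all 3 libraries, which allows up to 0.238, 0.335 and 0.237 CPM in replicates 1, 2 and 3.

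TARP messages summed to 417, 489 and 380 TPM. The highest on average per length was Cacng7 (chr7:3332955-3368221), encoding the type II TARP gamma-7, at 85.4, 94.9 and 81.1 CPM, or 175, 196 and 167 TPM. Cacng3, encoding gamma-3, had 63.8, 91.1 and 58.3 CPM and was highest in replicate 2. Its spread did not pass the edgeR goodness of fit test (adjusted p = 0.727). Cacng2, encoding gamma-2, or stargazin, the founding TARP, had 64.1, 62.1 and 58.0 CPM, the smallest relative spread of the 36 members tested (5.03%). Cacng5, encoding gamma-5, had 41.7, 42.5 and 32.1 CPM.

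The remaining TARP genes were lower, at 6.71 ± 0.36 TPM for Cacng4 and 6.70 ± 1.65 TPM for Cacng8 (SD, n = 3). Cacng4 had 5.08, 4.57 and 4.66 CPM. Cacng8, encoding gamma-8, the TARP best known from hippocampus, had 3.10, 3.90 and 2.37 CPM from 39, 35 and 30 counts. Cacng8 lay below Cacng2, with a log2 difference of -3.05, -2.69 and -3.26 per length (exact sign-flip permutation p = 0.25) and a mean of -4.501 with coding length. Cacng3 exceeded Cacng2 by 1.17 ± 0.32 units, or 2.24-fold, in 3 of 3 libraries, but by 0.22 with coding length. Cacng7 exceeded Cacng5 by 1.68, 1.80 and 1.98 units. Cacng7 led the family at 42.1% ± 1.98 in TPM and at 35.5% with coding length, and Cacng8 held 1.55% ± 0.19 and 0.816%.

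**Figure D3:**
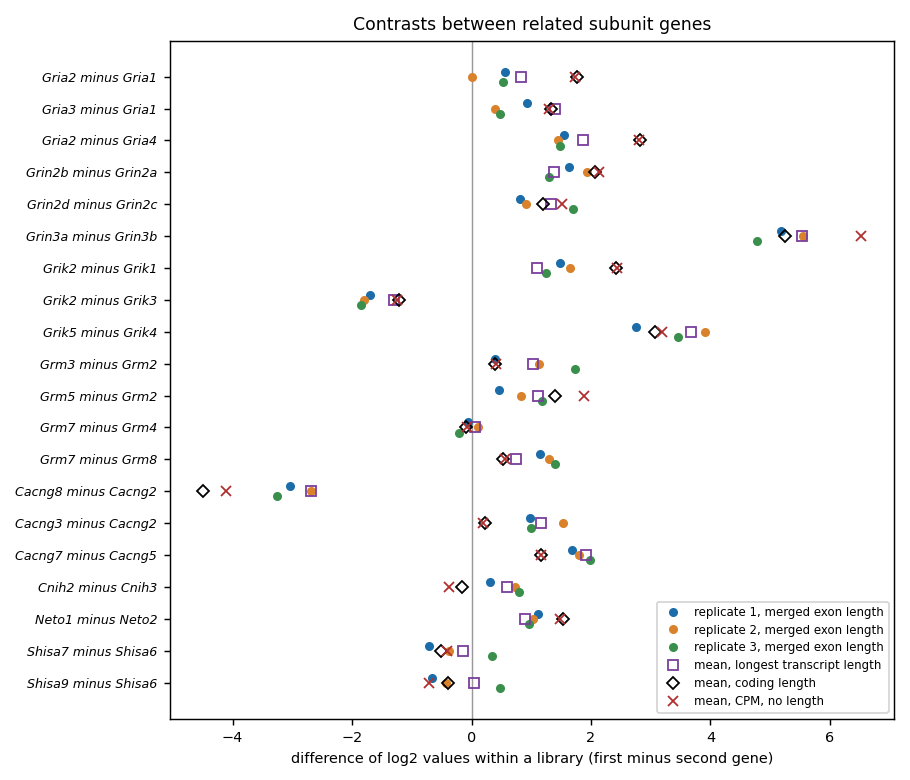
Each row is a pair of related genes, and the axis is the log2 difference of the first minus the second gene within a library, with a pseudocount of 0.5. Filled dots are the 3 libraries with merged exon length and open marks or crosses are means with other lengths or none. Cnih2 minus Cnih3 crosses 0 with the length used, and Grm7 minus Grm4 and both Shisa pairs cross it between libraries.

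Both cornichon genes were among the higher members per length. Cnih2 had 45.7, 54.2 and 58.0 CPM and Cnih3 had 73.8, 65.4 and 66.6 CPM. The order of the pair depended on the length used: Cnih2, with 1369 exonic bases, exceeded Cnih3, with 2751, by 0.32, 0.73 and 0.80 log2 units in replicates 1, 2 and 3. With coding length the mean difference was -0.16, and in CPM it was -0.38 (exact sign-flip permutation p = 0.25 for the per-length difference).

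Neto1 and Neto2 encode the auxiliary subunits of kainate receptors. Neto1 had 206, 167 and 172 CPM and Neto2 had 70.0, 60.02 and 64.5 CPM. Neto1 exceeded Neto2 by 1.11, 1.02 and 0.96 log2 units, or 2.04-fold, and by 1.53 on average with coding length (exact sign-flip permutation p = 0.25, adjusted p = 0.294). By merged exon length, Neto1 at 124, 101 and 104 TPM stood above each of the 5 kainate subunit genes in every library. Neto1 has 8352 merged exonic bases and Grik5, the highest kainate gene on this scale, has 5168. Their longest transcripts hold 8352 and 4061 bases, which raises Grik5 relative to Neto1. The longest coding sequences hold 1599 bases in Neto1 and 2937 in Grik5, which raises Neto1 relative to Grik5. The order of these genes is given for the merged exon length only.

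The Shisa genes encode single-pass proteins of which Shisa6 and Shisa9 (CKAMP52 and CKAMP44) bind AMPA receptors. Shisa7 had 103, 114 and 111 CPM and Shisa9 had 84.7, 87.7 and 95.7 CPM. Shisa6 (chr11:66211725-66525964) had 190, 167 and 97.4 CPM, so replicate 3 was the low library. Per length, at 128, 113 and 65.8 TPM, it led the family in replicates 1 and 2 and was last in replicate 3. Shisa7 differed from Shisa6 by -0.72, -0.39 and 0.35 log2 units per length (exact sign-flip permutation p = 0.5), and Shisa9 from Shisa6 by -0.66, -0.42 and 0.48 (exact sign-flip permutation p = 0.75). With the longest transcript Shisa9 led the family at 34.9%, and Shisa6 had 34.5%. Gsg1l, whose product slows the recovery of AMPA receptors from desensitization in rodent neurons, had 56.1, 77.9 and 83.1 CPM, and replicate 1 was lowest.

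Variation between libraries was tested across 14774 genes with the goodness of fit of 1 common mean per gene in edgeR. The spread allowed for was a trend fitted to these same 3 libraries. The test therefore asks whether a gene varied more than genes of like level, and a gene not called can still vary beyond counting error. At an adjusted p of 0.05, 0 of 36 members tested varied, against 0.244% of all genes tested. At an unadjusted p of 0.05, 1 member, Shisa6, did, against 7.22% of all genes. The limma variance test called 0 members after adjustment (0.0812% of all genes) and 2 at an unadjusted p of 0.05, Shisa6 and Grm3 (4.85% of all genes). The SD over the libraries was 5.03% to 41.1% of the mean in the members. Its median was 12.9% over the 36 members tested and 19.3% over all genes tested. The genes tested include many of low level, where counting error alone widens this spread, so these medians do not compare genes of like level.

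For Shisa6 the edgeR p was 3.9e-04 and the adjusted p 0.0975. Its adjusted p ranged from 0.0507, when genes had to reach 30 counts in a library, to over 0.99 with a common dispersion or without replicate 3. The olfactory bulb output neuron markers, with 2 of 3 detected in every library, moved the same way (141, 105 and 22.4 CPM in sum in replicates 1, 2 and 3), and Tbx21 among them had 34, 13 and 0 counts. The part of these cells in the level of Shisa6 was not tested.

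**Figure D4:**
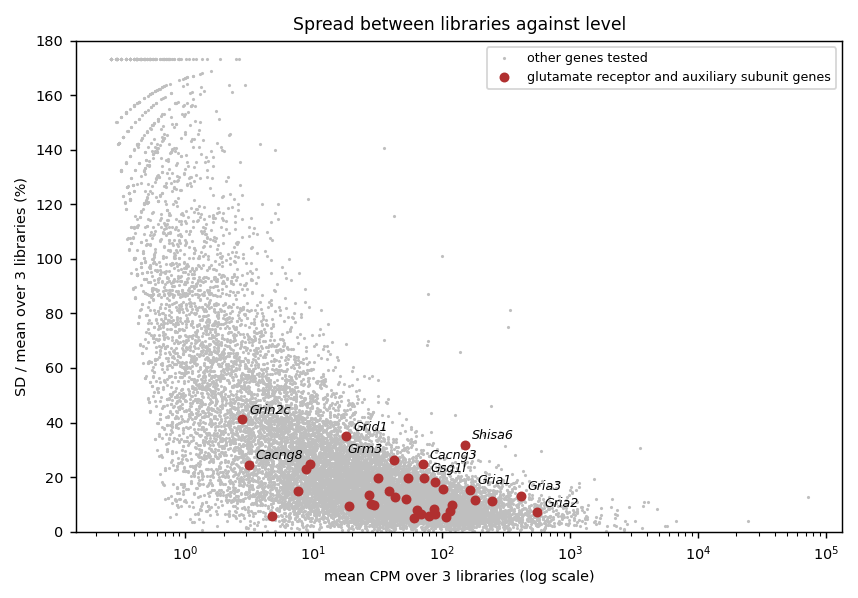
The SD over the 3 libraries as a percent of the mean is plotted against mean CPM on a log scale for the 14774 genes tested, with the 36 receptor and auxiliary subunit genes in red. Shisa6 (31.8% at 151 CPM) lies above the bulk of genes of its level, and most other members lie within it.

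Across the whole order of the 38 members by mean TPM, 33 of 37 neighbouring pairs had overlapping ranges over the libraries. The order therefore separates levels of members far apart in it, and seldom those of neighbours. The gaps without overlap were between Gria2 and Gria1, Cacng5 and Grm2, Grik1 and Grin2c, and Grin2c and Grin3b.

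Proteins that anchor, deliver or bridge the receptors were listed as the other genes of the pathway, and 47 of 49 listed symbols had a row. The other two, Tamalin and Norbin, are further names of Grasp and Ncdn, which are listed and had rows. Of these, 45 reached 1 CPM in every library, with a median of 84.3 TPM. The highest were Ncdn, encoding the mGlu5-binding protein neurochondrin, at 943, 952 and 866 TPM, Olfm1, a secreted AMPA receptor partner, at 784, 847 and 824 TPM, and Nsf, the ATPase that binds GluA2, at 776, 838 and 762 TPM. The lowest was the scaffold gene Homer3 with 2, 0 and 0 counts. The other exception was Nptxr, the neuronal pentraxin receptor, with 7, 14 and 15 counts. The neuronal pentraxin gene Nptx1 had 3083, 2131 and 2840 counts. Among 46 partner genes tested, 0 varied at an adjusted p of 0.05 in edgeR and 3 did at an unadjusted p of 0.05 (Shank3, Cbln1 and C1ql2). Over all genes tested these shares were 0.244% and 7.22%, so the partner genes stood near the background.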

How the data were processed

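For each of 3 libraries the authors deposited unnormalized counts by gene symbol, with summary lines for reads given to no gene. STAR 2.0.0e, HTSeq and mm10 are named per the submitters' processing notes. Settings, annotation, strand use and read length: not given in the sources used here. Lines naming no gene held 27.2% to 28.3% of counts and were left out of totals. CPM used totals over named genes. GENCODE M21 (mm10) gave lengths, positions and sequences for matching symbols (71.1% of symbols, 94.0% of those at 1 CPM or more in every library), and all 38 members matched. Reads carry no stated molecular identifiers, so floors and intervals cover counting error only. P-values of the variation tests concern the spread between these 3 pools of mice. Sign-flip p-values concern how steadily a difference between 2 genes kept its direction over the 3 pools, and do not cover the choice of length.

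Variation was tested with edgeR 4.0.16 (TMM, trended dispersion from estimateDisp, intercept-only fit, chi-square with 2 degrees of freedom, Benjamini-Hochberg at 0.05) for genes with 10 counts or more in a library. The test was checked on simulated counts in which some genes were changed in a single library, by more than any tested member differed. The power of the test for smaller differences was not checked. Alternatives used limma 3.58.1 and DESeq2 1.42.0 size factors, in R 4.3.3. Contrasts used log2(TPM + 0.5). Coding length and a second edgeR dispersion trend were alternatives chosen after seeing the data. Counts of no pair of libraries agreed within sampling noise (chi-square per degree of freedom of 12.5 to 17.4). The members, lists and contrasts were chosen with earlier results of these data known. All members are named. The rule asked for values in every library for the highest and lowest of each family, for contrast members, for members with an unadjusted p below 0.05 and for members under 1 CPM, and these are given for the remaining members as well. The 3 highest and the lowest partner genes are named, and other partner genes and single markers were picked with their values in view. Python 3.11.15, numpy 2.4.6, pandas 2.3.3, scipy 1.17.1 and matplotlib 3.10.9 were used.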

Additional observations from a re-analysis of the deposited data

How the results depend on the processing

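The number of members detected was 36 under TMM totals, a minimum of 10 counts and each replicate left out, and 33 at 5 CPM. The number of members called varying was 0 under all 10 alternatives, while the count over all genes was 36 in the reported fit, 37 with DESeq2 size factors, 12 in limma, 16 to 21 without a replicate, 18 at an adjusted p of 0.01, 26 and 59 with other count minimums, 71 with the other trend and 1097 with a common dispersion. The median level rose to 62.5 CPM with Rn45s, the ribosomal RNA precursor gene, left out of the totals, which by construction raises every level. Length was the choice that moved shares most. With the longest transcript, the shares were 44.6% for Gria3, 52.3% for Grik5, 44.1% for Cacng7, 65.2% for Neto1 and 55.4% for Grin2b. With coding length they were 33.6% for Grik5, 18.1% for Grm3, 35.5% for Cacng7, 47.2% for Cnih2, 74.4% for Neto1 and 74.7% for Grin2b. With CPM they were 35.04%, 15.8%, 32.8%, 43.4%, 73.6% and 75.6% for the same genes. Contrasts that changed sign were Cnih2 minus Cnih3 (-0.16 with coding length, -0.38 in CPM), Grm7 minus Grm4 (0.055 with the longest transcript, -0.13 to 0.025 with a replicate left out, positive without replicate 3) and Shisa9 minus Shisa6 (0.038 with the longest transcript, -0.54 to 0.029 with a replicate left out, positive without replicate 1). The other 154 of 160 alternative values of contrasts kept their sign. No paired analysis was possible because all libraries form 1 group. Genes under about 40 counts a library, such as Cacng8 and Grin2c, have a counting error near 17.1% and 18.6%, which limits their contrasts.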

Other observations

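Base composition differed widely among the members. The longest annotated transcript held 36.5% G and C in Neto2 and 65.1% in Cacng8, with a median of 51.5% over the 38 members and 48.7% over 23112 genes with a transcript. Of the members, 7 were over 60%: Grik5, Grin2c, Grin2d, Grin3b, Grm4, Cacng8 and Cnih2. Their levels ranged widely, with Cnih2 at 193 TPM, Grik5 at 86.3 TPM, Grm4 at 25.1 TPM, Cacng8 at 6.70 TPM, Grin2d at 6.58 TPM, Grin2c at 2.79 TPM and Grin3b at 0.161 TPM. Across the 38 members Spearman's rho of G and C content with TPM was -0.16, and Pearson's r with log2(TPM + 0.5) was -0.25. Over the 11576 genes detected in every library these values were 0.02 and 0.03. Genes share their libraries and are not independent replicates, so these are descriptions.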
